A study of Rattus norvegicus with 9 samples.

Results

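Amino acid transporters are the membrane proteins that carry amino acids, and a few related small molecules, into and out of cells and organelles. The genes described here are those of 7 solute carrier families whose platform symbols begin with Slc1a, Slc3a, Slc6a, Slc7a, Slc36a, Slc38a or Slc43a followed by a digit, with Slc1a2 left out. The rule uses only the symbols, and it was set with earlier results of these data known. This gave 60 of the 18166 genes with a name on the arrays. Each had a single probe set, and its identifier and symbol were found in the RefSeq gene table. Tests covered 55 of the 60, and 15793 genes in all, whose level was above the 25th percentile of an array's probe sets on 3 or more of the 9 arrays. Slc6a14, Slc6a15, Slc7a3, Slc7a11 and Slc7a13 were too dim on the arrays to be tested. A symbol does not make a gene an amino acid transporter: Slc7a6os is named for lying opposite Slc7a6, Slc43a3 carries purine nucleobases, Slc6a8 carries creatine, and Slc6a2, Slc6a3 and Slc6a4 carry monoamines.

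The tissue was rat liver after retrorsine, a plant alkaloid that blocks the division of hepatocytes, and partial hepatectomy, after which the liver regrows from clusters of SHPCs, small progenitor cells that resemble hepatocytes. All groups came from female F344 rats that had retrorsine at 30 mg/kg 2 times, with 2 weeks in between, and the hepatectomy 4 weeks after the last dose. The first group was SHPC clusters of livers that had received Thy1+ cells, from donors with dipeptidyl peptidase 4, through the spleen of rats lacking that enzyme. The second was SHPC clusters of livers without such cells, and the third was hepatocytes beside SHPC clusters, also without transplantation. Below, transplanted SHPCs and transplanted arrays mean the first group, where the Thy1+ cells were transplanted and not the SHPCs. Each group had 3 whole-transcript Affymetrix arrays of RNA from regions cut by laser out of 7 µm frozen sections, so each array pools the cells of the cut regions. For the hepatocyte group, a description label speaks of SHPCs with transplantation; the cell type label, which gives hepatocytes, was followed. The sources used here give neither the age of the rats nor the number of animals, and nothing ties a region to an animal, so the p-values below measure the spread between these arrays. Fewer cells of a type and less RNA per cell cannot be told apart in such samples.

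Amino acid transport in the liver is divided among systems named for their substrates. Sodium-coupled carriers of the Slc38 family bring in glutamine and small neutral amino acids, and their uptake feeds urea synthesis, gluconeogenesis and protein synthesis. Many exchangers of the Slc7 family need a heavy chain of the Slc3 family to reach the cell surface, and facilitated carriers of the Slc43 family let branched-chain and aromatic amino acids pass. The Slc6 family moves taurine, glycine, proline and transmitters with sodium and chloride, and the liver uses taurine to conjugate bile acids.

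Across the 7 families and the 3 comparisons, 1 gene passed the test, in a comparison where 1.18% of all tested genes did (0.861% as higher). The taurine transporter Slc6a6 was higher in SHPCs of transplanted livers than in hepatocytes. The log2 intensities of Slc6a6 were 9.25, 9.54 and 8.83 on the arrays of transplanted SHPCs. The SHPCs without transplantation gave 8.61, 7.34 and 8.25, and the hepatocytes gave 6.98, 6.83 and 7.58. All 3 transplanted arrays lay above all other 6, and the SHPC arrays ran from inside the hepatocyte range to above it. Between transplanted SHPCs and hepatocytes the log2 change was 2.08 ± 0.329 (limma SE, n = 3 arrays each), a 4.22-fold difference with a 95% interval of 1.34 to 2.81 on the log2 scale (adjusted p = 0.0206). The steps in between did not pass, at 1.14 ± 0.329 for transplanted SHPCs against SHPCs (adjusted p = 0.44) and 0.94 ± 0.329 for SHPCs against hepatocytes (adjusted p = 0.886). These are limma p-values, adjusted by Benjamini-Hochberg over all 15793 tested genes, and the comparisons share arrays. The call was lost when any transplanted array was left out (adjusted p = 0.111, 0.102 and 0.0627 without array 1, 2 and 3), and also without hepatocyte array 1 (0.0778) or hepatocyte array 2 (0.0844). It was also lost with each array centred on its median (0.0604) and with every probe set tested (0.0632). The Slc6a6 change stayed between 1.76 and 2.30 under all alternatives.

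**Figure D1:**
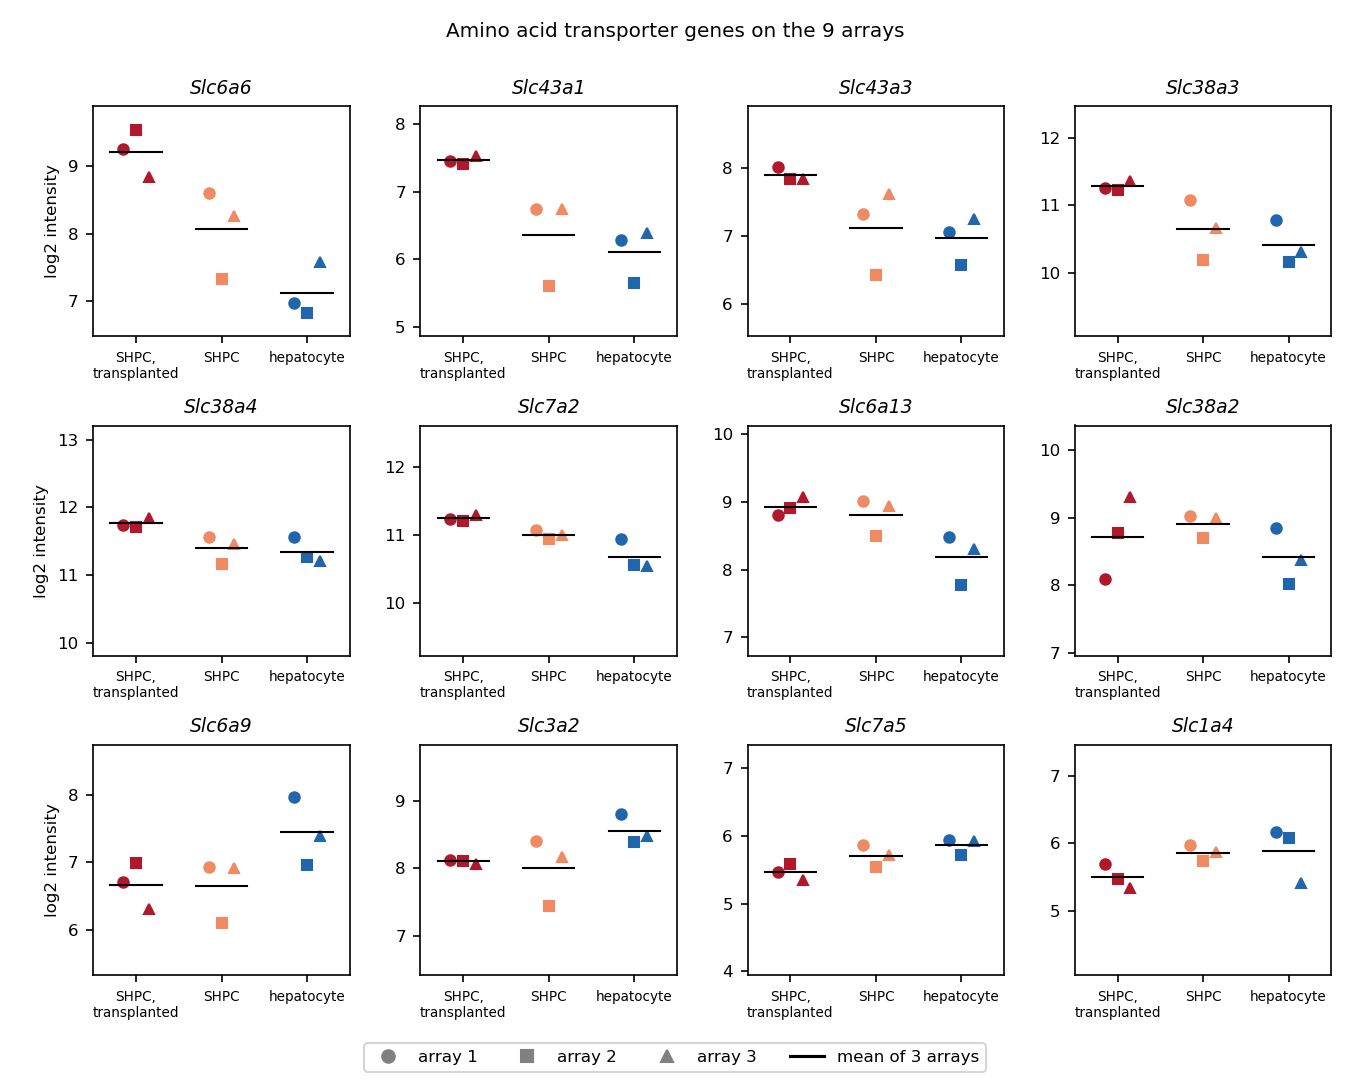
Log2 intensity of 12 amino acid transporter genes on each array, with transplanted SHPCs left, SHPCs in the middle and hepatocytes right. Transplanted SHPCs are those of livers given Thy1+ cells. Symbols mark array 1, 2 and 3 of a group, lines the mean of 3 arrays, and all panels span the same number of log2 units. For Slc6a6 the 3 transplanted arrays, at 8.83 to 9.54, sat above every other array.

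The promoter of Slc6a6 is printed because this gene carried the call, that of Slc43a1 because it had the next smallest p in the same comparison, and that of Slc1a4 because it held the amino acid response element. Windows run from 250 bases before to 50 bases after each gene's start (RefSeq, GRCr8), 5′ to 3′ on the gene's strand, with the searched motifs in capitals. Slc6a6 lies at chr4:125752252-125752551 on the plus strand, Slc43a1 at chr3:90327072-90327371 on the plus strand, and Slc1a4 at chr14:98761513-98761812 on the minus strand.
Slc6a6: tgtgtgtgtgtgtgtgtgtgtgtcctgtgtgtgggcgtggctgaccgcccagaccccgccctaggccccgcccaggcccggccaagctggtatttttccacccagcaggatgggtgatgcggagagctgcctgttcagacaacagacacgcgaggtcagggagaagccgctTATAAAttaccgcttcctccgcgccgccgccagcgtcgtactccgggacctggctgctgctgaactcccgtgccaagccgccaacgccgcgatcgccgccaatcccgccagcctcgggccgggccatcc
Slc43a1: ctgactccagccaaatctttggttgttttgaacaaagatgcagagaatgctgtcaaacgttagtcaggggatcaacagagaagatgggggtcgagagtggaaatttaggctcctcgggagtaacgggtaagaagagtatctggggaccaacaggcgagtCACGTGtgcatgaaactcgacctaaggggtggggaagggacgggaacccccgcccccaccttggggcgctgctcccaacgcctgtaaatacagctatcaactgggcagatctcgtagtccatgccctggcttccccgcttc
Slc1a4: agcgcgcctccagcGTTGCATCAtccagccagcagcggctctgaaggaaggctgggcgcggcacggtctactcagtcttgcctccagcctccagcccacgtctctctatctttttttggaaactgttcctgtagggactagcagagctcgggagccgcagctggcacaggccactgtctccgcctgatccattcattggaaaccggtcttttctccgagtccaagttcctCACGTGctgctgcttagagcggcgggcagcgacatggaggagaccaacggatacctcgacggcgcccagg
RefSeq windows were matched for 45 of the 60 genes, 49 windows in all. The motifs were searched on both strands by their letters: TATAAA, the TATA box; CACGTG, the E-box; and TGATGNAAN, the amino acid response element. None of these strings contains another. The TATA letters were in 7 of the 49 windows (14.3%) and in 14.2% of all 33469 windows, Slc6a6 among them. The E-box was in 8 (16.3%, against 6.42% of all windows), among them Slc43a1, Slc1a4, Slc7a5 and Slc36a1. The amino acid response element was in 3 (6.12%, against 3.97%), those of Slc1a4, Slc38a1 and Slc7a1. A match describes letters in a window and shows no binding.

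The 9 arrays were not alike, which bears on every value below. The median intensity was 24.06 on SHPC array 2 and 23.01 on hepatocyte array 2, on the linear scale, and 19.65 to 20.63 on the other arrays. On SHPC array 2, 22 of the 30 transporter genes above the arrays' median intensity lay below both other SHPC arrays, and 21 of the 25 dimmer tested ones lay above both. Hepatocyte array 2 did so for 16 of 30 and 19 of 25. Over all tested genes, bright and dim together, 45.8% lay below and 38.8% above both other arrays on SHPC array 2. These shares were 41.2% and 34.6% on hepatocyte array 2. On SHPC array 2, the median deviation from the group's middle array was -0.205 for the brighter transporter genes and 0.286 for the dimmer ones. On hepatocyte array 2 it was -0.08 and 0.111. On the transplanted arrays these medians lay between 0 and 0.0087. Values without these arrays are given below where they change a call or move a printed change by over 1.5 times.

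**Figure D2:**
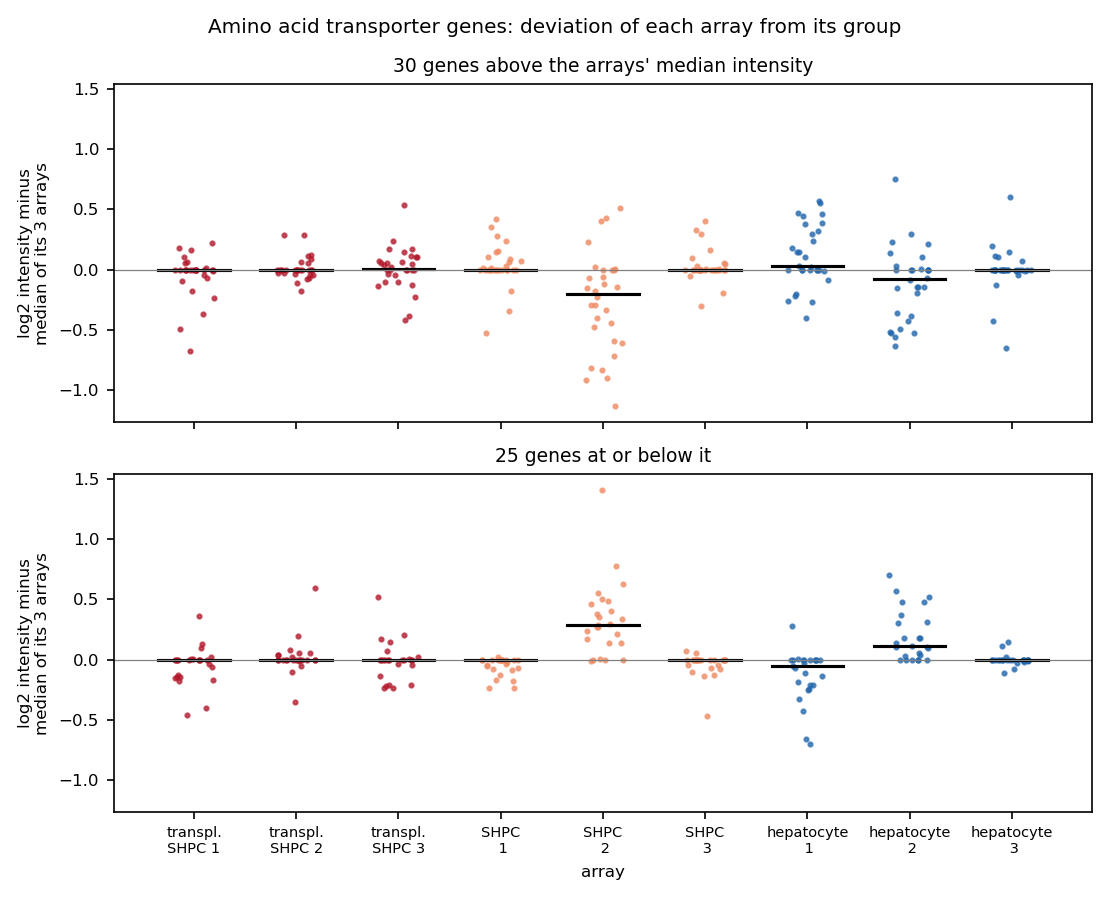
Each point is a transporter gene's log2 intensity minus the median of the 3 arrays of its group, for the 30 genes above the median intensity (top) and the 25 tested genes at or below it (bottom); lines mark the medians. On SHPC array 2 the medians were -0.205 and 0.286, and on hepatocyte array 2 -0.08 and 0.111.

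The comparison of SHPCs of transplanted livers with SHPCs of livers without transplantation asks what the given cells change in the clusters. No transporter gene passed limma's test (0 of 55), and among all tested genes 1 did (0.00633%). Unadjusted p under 0.05 was reached by Slc43a1, Slc6a6, Slc38a3, Slc43a3 and Slc38a4, 5 genes on the higher side, and by Slc7a12 alone on the lower, where all tested genes gave 5.07% and 2.29%. The 3 transplanted arrays lay wholly above the 3 SHPC arrays for 8 genes and wholly below for 5 (Slc1a4, Slc1a5, Slc7a6, Slc38a1 and Slc6a20b), against 10.6% and 5.23% of all tested genes. The median log2 change was -0.04 over the 55 genes and 0.02 over all tested genes.

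Of the facilitated carriers of the Slc43 family, all 3 genes gave higher values on each transplanted array than on any SHPC array, and the sign of these changes held under the 3 other scalings. Slc43a1 (LAT3), which carries branched-chain amino acids and phenylalanine, was at 7.45, 7.41 and 7.52 in transplanted SHPCs, against 6.74, 5.61 and 6.75 in SHPCs and 6.29, 5.66 and 6.40 in hepatocytes. The change was 1.10 ± 0.304 against SHPCs (adjusted p = 0.411) and 1.35 ± 0.304 against hepatocytes (adjusted p = 0.0813). Without SHPC array 2 and hepatocyte array 2, the Slc43a1 change against SHPCs was 0.72, and it then passed (adjusted p = 0.048). Its change against hepatocytes then also passed, at 1.12 (adjusted p = 0.00231). Leaving out only SHPC array 2 gave the same 0.72 against SHPCs, which did not pass (adjusted p = 0.521). In that fit the Slc43a1 change against hepatocytes stayed at 1.35 and passed (limma adjusted p = 0.00603). Leaving out only hepatocyte array 2 gave 1.10 against SHPCs (adjusted p = 0.333) and 1.12 against hepatocytes (adjusted p = 0.249), and neither passed. Slc43a3, the nucleobase carrier, was at 8.02, 7.85 and 7.84 in transplanted SHPCs, 7.32, 6.42 and 7.62 in SHPCs, and 7.06, 6.57 and 7.26 in hepatocytes. Its changes were 0.78 ± 0.288 against SHPCs (adjusted p = 0.607) and 0.94 ± 0.288 against hepatocytes (adjusted p = 0.23). Without both arrays 2, the Slc43a3 changes were 0.43 against SHPCs (adjusted p = 0.281) and 0.74 against hepatocytes, the second of which then passed (adjusted p = 0.0232). The second also passed without SHPC array 2 only (adjusted p = 0.0267), but not without hepatocyte array 2 only (adjusted p = 0.604). Slc43a2 (LAT4) averaged 5.79 ± 0.13 in transplanted SHPCs, 5.35 ± 0.35 in SHPCs and 5.44 ± 0.27 in hepatocytes (SD, n = 3 each), and its change of 0.43 against SHPCs was 0.23 without SHPC array 2. Slc43a1 and Slc43a3 lie on chromosome 3 with 1 protein-coding gene between them in GRCr8.

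Of the sodium-coupled Slc38 carriers, the glutamine carrier of system N, Slc38a3 (SNAT3), was at 11.25, 11.22 and 11.36 in transplanted SHPCs, against 11.08, 10.19 and 10.66 in SHPCs and 10.78, 10.17 and 10.31 in hepatocytes. The transplanted arrays lay above all others. The change was 0.64 ± 0.231 against SHPCs (adjusted p = 0.601) and 0.86 ± 0.231 against hepatocytes (adjusted p = 0.156). With SHPC array 2 left out, the Slc38a3 change against SHPCs was 0.41. The one against hepatocytes stayed at 0.86 and passed (adjusted p = 0.0376). Without both arrays 2 it was 0.73 and did not pass (adjusted p = 0.0687), nor did it without hepatocyte array 2 only (adjusted p = 0.429). Cyclic loess gave 0.38 against SHPCs and also a call against hepatocytes, at 0.66 (adjusted p = 0.048). The system A carrier Slc38a4 (SNAT4), which is strong in liver, was at 11.74, 11.71 and 11.85 in transplanted SHPCs, 11.56, 11.17 and 11.47 in SHPCs, and 11.56, 11.26 and 11.22 in hepatocytes. The changes were 0.37 ± 0.151 against SHPCs (adjusted p = 0.654) and 0.42 ± 0.151 against hepatocytes (adjusted p = 0.333). After cyclic loess the Slc38a4 changes were 0.12 and 0.22. Slc38a2 (SNAT2), a system A carrier known to be induced by amino acid shortage, averaged 8.72 ± 0.61 in transplanted SHPCs, 8.91 ± 0.18 in SHPCs and 8.41 ± 0.42 in hepatocytes, and its groups overlapped. Slc38a1, Slc38a2 and Slc38a4 lie in a row on chromosome 7 in GRCr8, and Slc38a1 (SNAT1) averaged 3.55 ± 0.14 in transplanted SHPCs, 3.72 ± 0.07 in SHPCs and 3.79 ± 0.31 in hepatocytes. The lysosomal members Slc38a7 and Slc38a9 (the arginine sensor of mTORC1) averaged 5.79 ± 0.10 and 6.17 ± 0.15 in transplanted SHPCs, 5.55 ± 0.25 and 5.85 ± 0.41 in SHPCs, and 5.72 ± 0.33 and 5.68 ± 0.37 in hepatocytes.

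The cationic amino acid carrier Slc7a2 (CAT2), which brings arginine into hepatocytes, was at 11.24, 11.21 and 11.29 in transplanted SHPCs, 11.06, 10.94 and 11.00 in SHPCs, and 10.94, 10.55 and 10.54 in hepatocytes. The groups stood in that order without overlap, though SHPC array 2 and hepatocyte array 1 both read 10.94. The changes were 0.24 ± 0.14 for transplanted SHPCs against SHPCs (adjusted p = 0.705, and -0.012 after cyclic loess), 0.32 ± 0.14 for SHPCs against hepatocytes (adjusted p = 1) and 0.57 ± 0.14 for transplanted SHPCs against hepatocytes (adjusted p = 0.114, and 0.36 after cyclic loess). The ubiquitous relative Slc7a1 (CAT1) averaged 3.74 ± 0.16, 3.75 ± 0.13 and 3.79 ± 0.10 in transplanted SHPCs, SHPCs and hepatocytes, and the groups overlapped.

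Of the exchangers, Slc7a5 (LAT1), the large neutral amino acid exchanger of growing cells, was at 5.47, 5.59 and 5.35 in transplanted SHPCs, 5.86, 5.54 and 5.72 in SHPCs, and 5.94, 5.72 and 5.92 in hepatocytes. The transplanted arrays lay below the hepatocyte arrays, with a change of -0.39 ± 0.139 (adjusted p = 0.339). Its heavy chain Slc3a2 (4F2hc, CD98) was at 8.13, 8.11 and 8.07 in transplanted SHPCs, 8.40, 7.45 and 8.16 in SHPCs, and 8.80, 8.39 and 8.48 in hepatocytes. The change was -0.45 ± 0.227 for transplanted SHPCs against hepatocytes (adjusted p = 0.541) and -0.55 ± 0.227 for SHPCs against hepatocytes (adjusted p = 1). The first of these passed under 2 of the 23 alternatives, cyclic loess (-0.63, adjusted p = 0.025) and array quality weights. Without SHPC array 2, the Slc3a2 change of SHPCs against hepatocytes was -0.28. Of the other light chains of 4F2hc, Slc7a8 (LAT2) averaged 5.36 ± 0.02, 5.45 ± 0.21 and 5.21 ± 0.35, and Slc7a7 (y+LAT1) 4.95 ± 0.37, 4.71 ± 0.09 and 4.73 ± 0.07, in transplanted SHPCs, SHPCs and hepatocytes, with overlap. The light chain Slc7a6 (y+LAT2) was dim, at 3.10, 3.30 and 3.27 in transplanted SHPCs, 3.46, 3.44 and 3.36 in SHPCs, and 3.47, 3.19 and 3.11 in hepatocytes, and its transplanted arrays lay below the SHPC arrays. The cystine exchanger Slc7a11 (xCT), a target of the shortage response, was below its arrays' 25th percentile on all 9, at 2.05 to 2.58.

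The glycine transporter Slc6a9 (GLYT1) was at 6.71, 6.99 and 6.32 in transplanted SHPCs, 6.94, 6.11 and 6.92 in SHPCs, and 7.97, 6.97 and 7.39 in hepatocytes. The SHPC arrays lay below the hepatocyte arrays (-0.79 ± 0.303, adjusted p = 1, and -0.51 without SHPC array 2), while transplanted SHPCs overlapped with hepatocytes (-0.77 ± 0.303, adjusted p = 0.413, and -0.51 without hepatocyte array 1). The taurine and GABA carrier Slc6a13 (GAT2), known from hepatocytes in the mouse, was at 8.81, 8.90 and 9.08 in transplanted SHPCs, 9.01, 8.49 and 8.94 in SHPCs, and 8.47, 7.78 and 8.30 in hepatocytes. Both kinds of SHPC lay above the hepatocytes, at 0.75 ± 0.207 for transplanted SHPCs (adjusted p = 0.171) and 0.63 ± 0.207 for SHPCs (adjusted p = 0.787). Without both arrays 2, the Slc6a13 change of transplanted SHPCs was 0.54 and passed (adjusted p = 0.0477). It did not pass without SHPC array 2 only (adjusted p = 0.0661) or hepatocyte array 2 only (adjusted p = 0.42). The creatine transporter Slc6a8 averaged 6.01 ± 0.04 in transplanted SHPCs, 5.76 ± 0.48 in SHPCs and 6.08 ± 0.41 in hepatocytes. Slc6a20a, of the imino acid carriers, had the most negative change of the 55 genes between both kinds of SHPC, at 3.77 ± 0.36 in transplanted SHPCs against 4.42 ± 0.63 in SHPCs, where SHPC array 2 alone read 5.09 (-0.65 ± 0.325, adjusted p = 0.705, and -0.31 without that array).

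Of the Slc1 family, the neutral amino acid exchangers Slc1a4 (ASCT1) and Slc1a5 (ASCT2) gave lower values in transplanted SHPCs than on any SHPC array. Slc1a4 was at 5.69, 5.47 and 5.33 in transplanted SHPCs, 5.98, 5.73 and 5.87 in SHPCs, and 6.17, 6.07 and 5.42 in hepatocytes (-0.36 ± 0.203 against SHPCs, adjusted p = 0.705). Slc1a5 was at 4.18, 4.26 and 3.95 in transplanted SHPCs, against 4.31, 4.61 and 4.27 in SHPCs, with 4.13, 4.23 and 4.35 in hepatocytes (-0.27 ± 0.147 against SHPCs, adjusted p = 0.705, and -0.16 without SHPC array 2). The glutamate carriers Slc1a1 (EAAT3) and Slc1a3 (EAAT1) averaged 4.38 ± 0.14 and 3.89 ± 0.13 in transplanted SHPCs, 4.56 ± 0.39 and 4.11 ± 0.32 in SHPCs, and 4.63 ± 0.18 and 3.85 ± 0.07 in hepatocytes. The lysosomal carrier Slc36a1 (PAT1) and its relative Slc36a4 averaged 5.72 ± 0.06 and 4.78 ± 0.11 in transplanted SHPCs, 5.61 ± 0.13 and 4.65 ± 0.34 in SHPCs, and 5.68 ± 0.01 and 4.51 ± 0.31 in hepatocytes, with overlap.

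Among the dimmer genes, the Slc7 relative Slc7a12 was at 2.70, 3.44 and 2.85 in transplanted SHPCs, 3.42, 3.94 and 3.44 in SHPCs, and 3.44, 3.44 and 3.47 in hepatocytes. Its change was -0.60 ± 0.21 against SHPCs (adjusted p = 0.556) and -0.45 ± 0.21 against hepatocytes (adjusted p = 0.502), and the groups overlapped. The dopamine transporter Slc6a3 averaged 3.95 ± 0.14 in transplanted SHPCs, 4.09 ± 0.01 in SHPCs and 4.51 ± 0.40 in hepatocytes, where hepatocyte array 2 read 4.96. The kidney carrier pair of cystine and dibasic amino acids, Slc7a9 and its heavy chain Slc3a1, averaged 3.63 ± 0.03 and 3.92 ± 0.00 in transplanted SHPCs, 3.80 ± 0.21 and 4.03 ± 0.26 in SHPCs, and 3.72 ± 0.10 and 3.90 ± 0.21 in hepatocytes. Slc3a1 and Slc6a2 were listed with the same value on all 3 transplanted arrays, Slc1a7 on all 3 SHPC arrays and Slc7a10 on all 3 hepatocyte arrays. Over the 60 genes, the group means stood in the order transplanted SHPCs, SHPCs, hepatocytes from high to low for 11 genes and from low to high for 16. The remaining orders held 6 to 10 genes each. The 60 include the 5 genes too dim to test, and the orders were not counted over all genes.

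The comparison of SHPCs with hepatocytes asks how the clusters differ from the cells around them. No transporter gene passed (0 of 55, with 10 of all genes, 0.0633%). Unadjusted p under 0.05 was reached by Slc6a13, Slc6a6 and Slc7a2 on the higher side and by Slc6a9 and Slc3a2 on the lower. That is 3 and 2 of 55, against 2.31% and 1.81% of all tested genes. The arrays lay apart for 3 higher genes (Slc6a13, Slc7a2 and Slc38a5) and 4 lower ones (Slc6a9, Slc6a3, Slc1a7 and Slc7a15), against 2.72% and 2.49%. SHPC array 2 and hepatocyte array 2 deviated alike, but whether the titles' replicate numbers pair the other arrays of these groups is not settled. With the number as a block, all genes called were 35 instead of 10, and the transporter genes called stayed at 0.

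In transplanted SHPCs against hepatocytes, the comparison that combines both differences, 1 of the 55 genes passed, Slc6a6, while 186 of all tested genes did (1.18%). Unadjusted p under 0.05 held for 7 higher and 4 lower genes (the lower ones Slc6a3, Slc7a5, Slc6a9 and Slc1a7), against 7.07% and 3.32% of all tested genes. The arrays lay apart for 9 higher and 5 lower genes (the lower ones Slc3a2, Slc7a5, Slc6a3, Slc6a20b and Slc7a4, the last named after its values were seen), against 12.6% and 6.64%. The median change was -0.05 over the transporter genes and -0.0013 over all genes. Of the brighter genes, 20 of 30 had a change above 0 against SHPCs and 18 of 30 against hepatocytes, and of the dimmer ones 5 of 25 in either comparison. After cyclic loess these counts were 16 and 17 of the brighter and 10 and 12 of the dimmer genes. Renewed quantile normalization gave 18 and 17 of the brighter and 9 and 12 of the dimmer genes. With median centring they were 23 and 20 of the brighter and 9 and 11 of the dimmer genes. The dimmer genes also read high on the arrays 2 described above, and the shares were not tested.

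**Figure D3:**
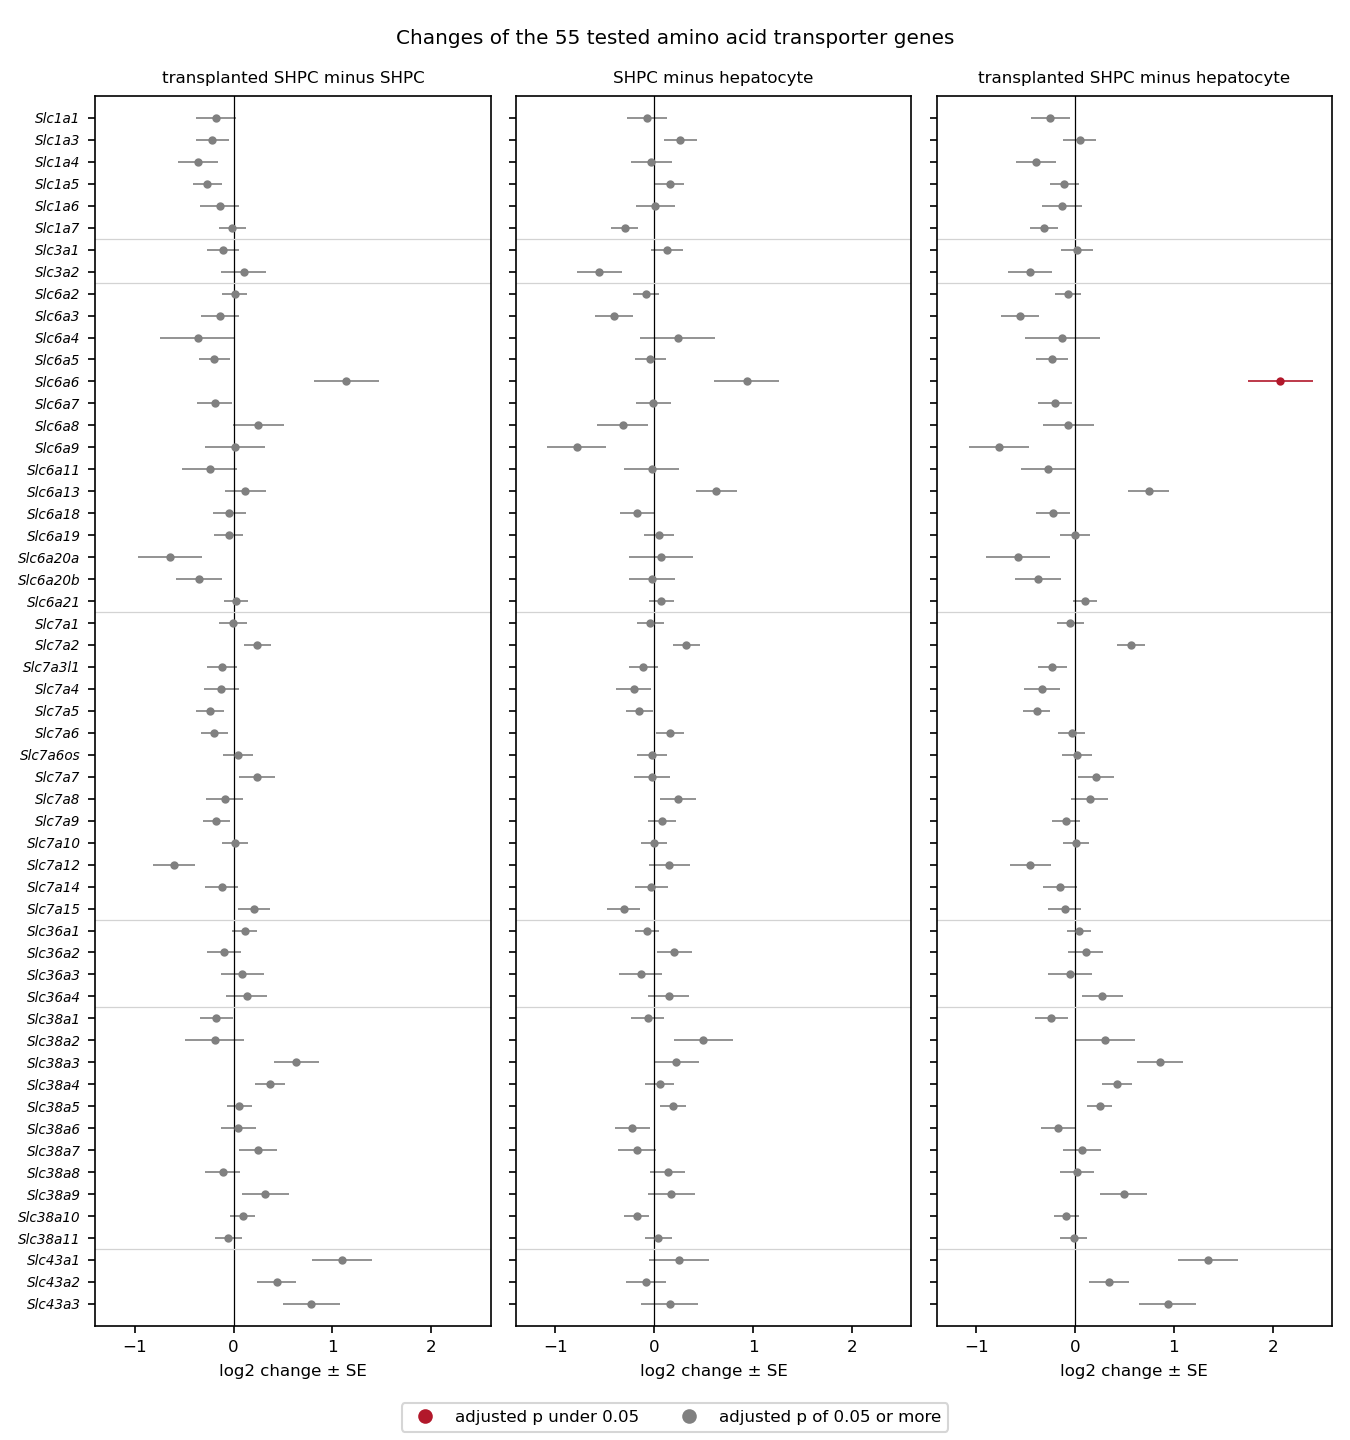
Log2 change ± SE (limma) of the 55 tested transporter genes in the 3 comparisons, ordered by family, with transplanted SHPCs over SHPCs left, SHPCs over hepatocytes in the middle and transplanted SHPCs over hepatocytes right. Only Slc6a6, at 2.08 in the right panel, had an adjusted p under 0.05.

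Genes around the transporters were read from 4 lists, with counts in transplanted SHPCs over hepatocytes, where 1.18% of all tested genes passed. The other amino acid and peptide carriers had 0 of 17 tested genes called. Of the amino acid shortage response, which transcription factor ATF4 drives, 26 of 39 listed genes were measured, and 3 of the 26 passed. Psat1, of serine synthesis, was at 5.95, 5.86 and 5.96 in transplanted SHPCs, 5.44, 4.56 and 5.39 in SHPCs, and 4.41, 4.66 and 4.58 in hepatocytes, and was 2.59-fold higher than in hepatocytes (log2 change 1.37 ± 0.218, adjusted p = 0.0206). Nupr1, a stress-response gene, was 1.18 ± 0.22 higher (adjusted p = 0.0368), and the transcription factor Atf5 fell by 1.25 ± 0.197 (adjusted p = 0.0206). Asns, the asparagine synthetase often used as a marker of this response, averaged 4.22 ± 0.27 in transplanted SHPCs, 4.12 ± 0.30 in SHPCs and 4.16 ± 0.01 in hepatocytes. The pseudokinase Trib3 was at 5.02, 5.02 and 4.81 in transplanted SHPCs, 5.42, 5.39 and 5.37 in SHPCs, and 6.22, 5.70 and 5.50 in hepatocytes, and its change of -0.86 ± 0.181 did not pass (adjusted p = 0.0633). Of the 26 genes, 17 had a change above 0 and 9 below, against 7864 and 7927 of all tested genes.

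Of the genes for glutamine, glutamate and alanine metabolism, 2 of 21 passed, both higher, against 1.18% of all tested genes. The aspartate aminotransferase Got1 was at 10.75, 10.59 and 10.92 in transplanted SHPCs, 10.35, 9.97 and 10.19 in SHPCs, and 9.65, 9.37 and 9.44 in hepatocytes. Its change of 1.27 ± 0.152 (adjusted p = 0.00585) was 2.41-fold, and all 3 groups lay apart in that order. The mitochondrial form Got2 was 0.72 ± 0.139 higher (adjusted p = 0.0414). The list's median change was 0.30, against -0.0013 over all genes. In the list of amino acid sensing at the lysosome and mTORC1, 0 of 30 passed. In the other comparisons no gene of the 4 lists passed in this fit, though some did under alternatives, Nupr1 against SHPCs under 6 and Psat1 between SHPCs and hepatocytes under 3. Prodh, of proline breakdown, and Trib3 gained a call against hepatocytes under 9 and 6. The call of Got1 was kept under all 23 alternatives, and those of Got2, Nupr1, Psat1 and Atf5 were lost under 15, 10, 8 and 6 of them, among them the fits without single arrays.

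**Figure D4:**
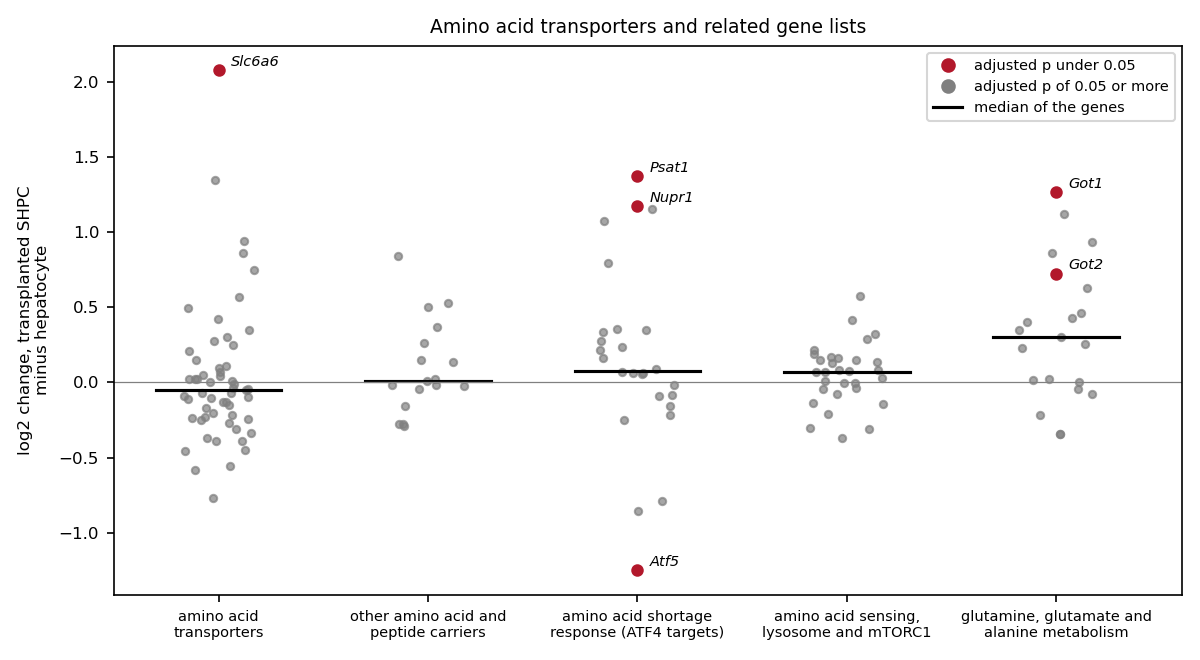
Log2 change of transplanted SHPCs over hepatocytes for the transporter genes and the genes of 4 related lists. Red points passed at adjusted p under 0.05, and lines mark the medians, -0.05 for the transporters and 0.30 for glutamine, glutamate and alanine metabolism.

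Summed markers of other cells were read on the same arrays, with calls in transplanted SHPCs against hepatocytes, where 1.18% of all tested genes passed. The 11 measured Kupffer cell genes summed to 2793 to 3346 in transplanted SHPCs, 1455 to 2423 in SHPCs and 2011 to 2751 in hepatocytes (linear intensity), with 1 of 11 (Marco) called against hepatocytes. The lowest of these SHPC and hepatocyte sums were those of both arrays 2, and the other arrays gave 2324 and 2423 in SHPCs and 2516 and 2751 in hepatocytes. The 7 of cholangiocytes summed to 288 to 320, 190 to 256 and 189 to 219, the 9 of stellate cells to 967 to 1168, 614 to 945 and 740 to 1122, and the 5 of sinusoidal endothelium to 735 to 857, 497 to 720 and 576 to 836, in the same order, with none called and the lowest SHPC and hepatocyte sums again on arrays 2. The 7 of T and NK cells gave 129 to 135, 121 to 142 and 113 to 122, and the 2 erythroid ones 47 to 50, 44 to 49 and 37 to 50. The 8 hepatocyte genes summed to 42003 to 43194, 35394 to 41107 and 35297 to 38822. Periportal hepatocyte genes were called higher in transplanted SHPCs than in hepatocytes for 3 of 8, Sds, Hal and Arg1 (sums of 11979 to 12769, 9939 to 12528 and 7435 to 9485). Pericentral ones were called lower for 1 of 6, Tbx3 (2627 to 3795, 2608 to 3608 and 4223 to 5498). SHPCs without transplantation also had all 8 periportal changes above 0 against hepatocytes, with Sds called (limma adjusted p = 0.0314). Of their pericentral genes, 5 of 6 were lower at unadjusted p under 0.05, against 1.81% of all tested genes. The called marker genes were named after their values were seen. The single donor cell marker, Thy1, gave 37 to 39, 39 to 41 and 37 to 40. No marker was listed at 0. The part of these cells and of liver zone in the Slc6a6 difference was not tested.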

How the data were processed

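Gene expression was measured on 9 Affymetrix arrays of laser-microdissected liver regions, 3 per group. Groups follow the cell type labels. The deposited table holds an intensity for each of 36685 probe sets, which the authors made with RMA, per the submitters' processing notes; the sources used here give no version. The values are on a linear scale, and log2 of each was taken. Genes were named from the platform annotation, and 575 probe sets with several symbols were left unnamed. A gene with several probe sets was read from its brightest on average.

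Tests used limma 3.58.1 (R 4.3.3) with eBayes, in a fit of 3 group means to the 9 arrays that leaves 6 residual degrees of freedom, and p-values were adjusted by Benjamini-Hochberg over all tested genes at a threshold of 0.05. The fit was tested on simulated data. The number of arrays limits the precision. Equal replicate numbers were checked by the correlation of deviations from the group mean. SHPC and hepatocyte arrays of the same number gave 0.526, 0.705 and 0.341. Of unequal numbers, SHPC array 3 with hepatocyte array 1 gave 0.48, and SHPC array 1 with hepatocyte array 3 gave 0.237. Both arrays 2 deviated alike, and each gave -0.606 to -0.346 with arrays 1 and 3 of the other group. Whether the numbers pair arrays 1 and 3 is not settled by these values. The same check gave -0.0936 to 0.00234 between transplanted SHPCs and SHPCs and -0.0904 to -0.069 between transplanted SHPCs and hepatocytes, which are not paired.

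Named genes were those called, the 6 smallest p in each direction of each comparison, and members named by role; of each list, up to 4 by p. The members, lists and rules were chosen with earlier results of these data known. Slc6a12 was not analysed here. Alternatives covered scaling, log offset, dim filter, probe sets, samples in the fit, variance model, array weights, replicate block and leaving out arrays.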

Additional observations from a re-analysis of the deposited data

How the results depend on the processing

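The single transporter gene called between transplanted SHPCs and hepatocytes was set against 23 alternatives, 1 of them (the compared groups alone with the replicate number as a block) chosen after seeing the data. The count was 0 with median centring and with all probe sets. It was 2 with the compared groups alone, with the number as a random block, and with the compared groups alone and the block. It was 3 with renewed quantile normalization, 4 with the replicate block and 4 without both arrays 2. It was 6 with cyclic loess and 14 with array quality weights. Over all 15793 tested genes, 47 were called with median centring and 328 with renewed quantile normalization, against 186 in the main fit. Cyclic loess called 440 of all tested genes and array quality weights 2685. Leaving out 1 array at a time gave 0 to 4 transporter genes, and 31 to 472 of all tested genes. The 4 came without SHPC array 2, and 0 without any transplanted array or hepatocyte array 1 or 2. Between transplanted SHPCs and SHPCs, the count of 0 became 1, Slc43a1, with array quality weights and without both arrays 2. All genes called were 259 and 23 in these fits, and leaving out 1 array gave 0 to 0 transporter genes. Between SHPCs and hepatocytes, 0 became 2, Slc6a13 and Slc7a2, with array quality weights, where 375 of all tested genes were called. Leaving out 1 array there gave 0 to 0 transporter genes. The cause was not tested. Replicate block fits changed no other count of transporter genes.

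Of the changes printed for single genes, that of Slc7a2 between transplanted SHPCs and SHPCs turned its sign, at -0.012 with cyclic loess. Over all 55 genes, the sign of 14, 1 and 10 turned under at least 1 of the 3 scalings in the comparisons of transplanted SHPCs with SHPCs, SHPCs with hepatocytes and transplanted SHPCs with hepatocytes, all with a change of at most 0.24 in size. Median centring moved the median change of all genes between transplanted SHPCs and SHPCs to 0.12, against 0.02. Of list genes, Got2, Nupr1, Psat1 and Atf5 lost their calls under 15, 10, 8 and 6 of the alternatives. Against hepatocytes, Prodh and Trib3 gained one under 9 and 6, and in the comparisons without list calls Nupr1 gained one against SHPCs under 6 and Psat1 between SHPCs and hepatocytes under 3. Counts over all genes ranged from 0 to 259, 0 to 375 and 31 to 2685, against 1, 10 and 186, with array quality weights highest. In the first comparison 0 genes were higher and 1 was lower, against 3 and 14 with quantile normalization and 16 and 24 with cyclic loess.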
